A study of Mus musculus with 8 samples.

Results

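The genes described here encode the proteins of the mitochondrial ribosome. They were taken as the gene rows of the deposited table whose symbol starts with Mrpl or Mrps followed by a digit and whose mean count was at least 10. This gave 77 genes (48 Mrpl, 29 Mrps) of 17597 genes in the table, or of the 13590 genes at that minimum, and no gene with such a symbol lay under the minimum. The mean count is the authors' mean of read counts, each divided by the size factor of its library, over all libraries, so it is 1 value per gene with no spread between replicates.

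The libraries were made from total RNA of mouse embryonic stem cells of a Cast x 129S strain background, grown on inactivated fibroblast feeders. In all of them METTL3, the enzyme that places the N6-methyladenosine (m6A) mark on transcripts, carried an FKBP12F36V tag, a domain through which the small molecule dTAG-13 brings about destruction of the protein, and a TetOn promoter stood in place of the Xist promoter on 1 allele, which the labels give as 129S and the study's own description of these clones as Cast. Of 8 libraries, 4 came from untreated cells and 4 from cells given dTAG-13 for 26 hours, with the clones C3 and H5 giving 2 replicates each per group and no doxycycline in either group. Each clone stands for 1 tagging event. The values pool treated and untreated cells, and an effect of dTAG-13 on these genes was not analysed here because only columns of the authors' own comparison would give one.

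The mitochondrial ribosome translates the few proteins encoded by mitochondrial DNA, all of them parts of the respiratory chain and the ATP synthase. Its RNAs are made inside the mitochondrion, whereas all of its proteins are encoded in the nucleus, made in the cytosol and imported. Some of the proteins descend from those of the bacterial ribosome and others were gained in the course of mitochondrial evolution. A ribosome needs its proteins in set proportions, although RNA level is only 1 of the steps that set them.

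The cells carried the markers of embryonic stem cells. Pou5f1, a core pluripotency factor, had a mean count of 11934, and the 9 stem cell markers examined ran from 1415 (Klf4) to 11934. Of the 10 fibroblast markers examined, Col1a1, Col1a2 and Col3a1, which encode fibrillar collagens, had mean counts of 19.8, 13.8 and 8.38, while Fn1, Sparc and Vim, which encode a matrix glycoprotein, a matrix-binding protein and an intermediate filament, had 4941, 3052 and 2073. The other 4 (Thy1, Acta2, S100a4 and Pdgfra) ran from 39.1 to 116. The part of feeder RNA in the values below was not tested. The mean counts of all genes summed to 1.46e+07, and the depth of single libraries is unknown here.

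Sequences at the start sites of these genes are shown first, because members held 3 short motif cores there at higher shares than all genes. RefSeq windows of 300 bases, from 250 bases before to 50 bases after an annotated start (GRCm38.p6), were found for 68 of the 77 members, in 74 windows. Each was searched on both strands for CCGGAAG, a core bound by ETS factors, for GCATGCGC, a core of the site of NRF1 (a factor known for its role at nuclear genes of mitochondrial proteins), and for AAGATGGCG, a core of the YY1 site. None of the 3 cores contains another, and GCATGCGC can match both strands at offset positions in one palindromic stretch. The following stretches of 60 bases end at the base before the start, read on the strand of the gene, with each match to ETS or NRF1 in capitals.
Mrpl43 (chr19:45006443-45006502, minus strand), 2 ETS matches: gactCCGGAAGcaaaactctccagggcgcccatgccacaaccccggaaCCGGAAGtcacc
Mrpl53 (chr6:83109048-83109107, plus strand), 2 ETS matches: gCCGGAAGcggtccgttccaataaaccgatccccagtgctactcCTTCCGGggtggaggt
Mrpl34 (chr8:71464866-71464925, plus strand), ETS: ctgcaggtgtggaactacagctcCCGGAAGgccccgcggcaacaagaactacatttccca
Mrps22 (chr9:98601680-98601739, minus strand), ETS: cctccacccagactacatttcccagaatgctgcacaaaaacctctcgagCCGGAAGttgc
Mrpl9 (chr3:94443276-94443335, plus strand), NRF1: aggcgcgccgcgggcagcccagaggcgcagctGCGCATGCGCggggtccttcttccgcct
Mrpl17 (chr7:105811088-105811147, minus strand), NRF1: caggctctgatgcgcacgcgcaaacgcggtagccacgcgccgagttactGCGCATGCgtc

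In 6 of the 8 members whose windows held it, the YY1 core lay just after the annotated RefSeq start. For Mrps24 and Mrpl35 that start lies well inside the gene as modelled in GENCODE vM21. The stretches below hold the match in capitals with up to 10 bases on each side, on the strand of the gene. The window ends 50 bases after the start, so a match further in could not be found.
Mrps18a (chr17:46111005-46111033, plus strand), match from base +12: ggtgcgttccAAGATGGCGgccctcaggg
Mrps27 (chr13:99344790-99344818, plus strand), match from base +15: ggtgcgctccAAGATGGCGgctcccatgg
Mrpl35 (chr6:71823743-71823771, minus strand), match from base +24: ggcaggctgcAAGATGGCGgcttccatct
Mrpl37 (chr4:107066822-107066850, minus strand), match from base +27: tgcacgggcaAAGATGGCGgcgtccaggt
Mrpl42 (chr10:95501904-95501932, minus strand), match from base +28: agattgaagcAAGATGGCGagcgcgcggt
Mrps24 (chr11:5707652-5707675, minus strand, cut at the window's end), match from base +37: gcgccggcccAAGATGGCGtggtc

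The ETS core was present in 33.8% of member windows (25 genes), against 16.5% of the windows of all genes at the minimum and 8.86% of all 32851 windows. The YY1 core was present in 10.8% of member windows (8 genes), against 2.77% and 1.40%, and the NRF1 core in 10.8% (8 genes), against 5.23% and 2.71%. Altogether 35 of the 68 members held at least 1 of the 3 cores, 6 held cores of 2 or more kinds, and 33 held none. These shares are descriptions of letters in a window and carry no test.

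The positions of the matches differed by motif. Of 29 ETS matches, 15 lay within the 60 bases before the start and 9 lay after it, on either strand. Of 14 NRF1 matches, 6 lay within those 60 bases and 1 lay after the start. Of 8 YY1 matches, 6 lay on the strand of the gene, all of them between +12 and +37 in windows that end at base +50. The others, in Mrpl36 and Mrps11, lay on the opposite strand at -31 and -108. The median mean count per kb of exon (defined below) was 458 in the 25 members with the ETS core and 481 in the 43 members that had a window without the ETS core.

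**Figure D1:**
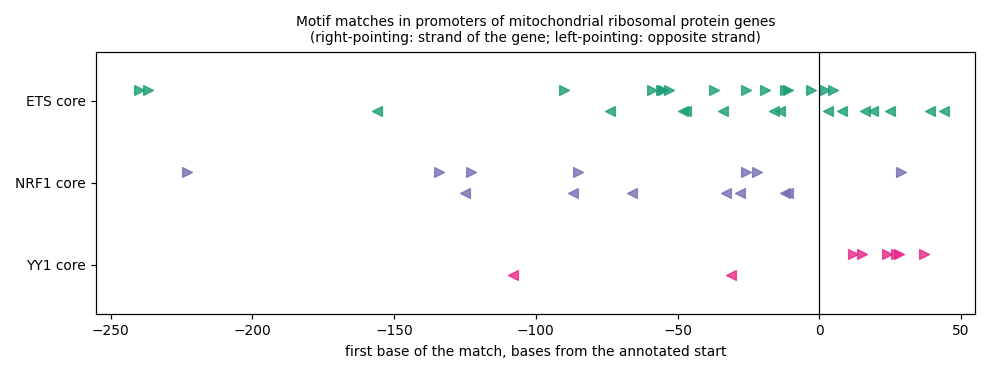
Position of each motif match (horizontal axis, bases from the annotated start, 0 marked by a line) in the promoter windows of mitochondrial ribosomal protein genes, with 1 row per motif. Triangles pointing right are matches on the strand of the gene and those pointing left are on the opposite strand; the 6 right-pointing YY1 matches sit between +12 and +37.

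The letters of the YY1 core contain a start codon, and in part of the members that codon is the one used. In the transcript with the longest coding sequence (GENCODE vM21), the bases from 3 before the coding sequence to 6 into it spelled the YY1 core in 7 of the 77 members, namely Mrpl35, Mrpl38, Mrpl46, Mrps10, Mrps18a, Mrps24 and Mrps27, of which 4 are among the 6 printed above. That is 9.09% of members, against 2.33% of genes at the minimum (304 of 13026 with a coding transcript). More broadly, 49 members (63.6%) had a coding sequence that began with ATGGC, which encodes methionine followed by alanine when completed by any base, against 26.0% of genes. This comparison was chosen after the values were seen and has no test.

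The mean counts of the members lay closer together than those of all genes. They ran from 254 (Mrps6, a small subunit protein with a bacterial relative) to 3701 (Mrpl15, a large subunit protein with a bacterial relative), a 14.6-fold span, with a median of 984 and quartiles of 664 and 1282. The median over all genes at the minimum was 373. The SD of the log2 mean count was 0.75 over members, 0.87 over 76 cytosolic ribosomal protein genes and 2.45 over all genes at the minimum. Per kb of exon (below) the order of the first 2 turned round, with SDs of 1.05 over members, 0.99 over cytosolic genes and 2.51 over all genes. That order depended on the length used. Per kb of the longest transcript the SDs were 0.97 over members and 1.00 over cytosolic genes. Per kb of the transcript with the longest coding sequence they were 0.94 and 0.86. By mean count, 74 of the 77 members stood above the median gene, 33 in the top 25% of genes and only Mrpl15 in the top 10%. Every member lay well over the minimum of 10, and no member was near it.

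Together the members held 0.567% of the summed mean counts of genes, and they are 0.567% of the genes at the minimum. The 76 cytosolic ribosomal protein genes, the most similar group in kind and number, held 5.65%. Their median mean count was 9.20 times that of the members.

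Levels of different genes were compared per kb, as the mean count divided by the length of all annotated exons of the gene merged (GENCODE vM21). On this scale the members ran from 58.8 to 1415, with a median of 430 and quartiles of 213 and 661, against a median of 81.3 over 13447 genes with a length and 5507 over the cytosolic ribosomal protein genes. The member median was thus 5.29 times that of all genes, and the cytosolic median was 12.8 times that of the members. Stretches shared with other genes (below) were counted for members only, so their part in the cytosolic levels was not tested. The ranges of the 2 kinds of ribosomal protein genes met at their ends only: 7 members exceeded the lowest cytosolic gene, and 5 cytosolic genes lay under the highest member. The median member ranked at the 85.0th percentile of genes, 74 members lay above the median gene and 54 in the top 25%.

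**Figure D2:**
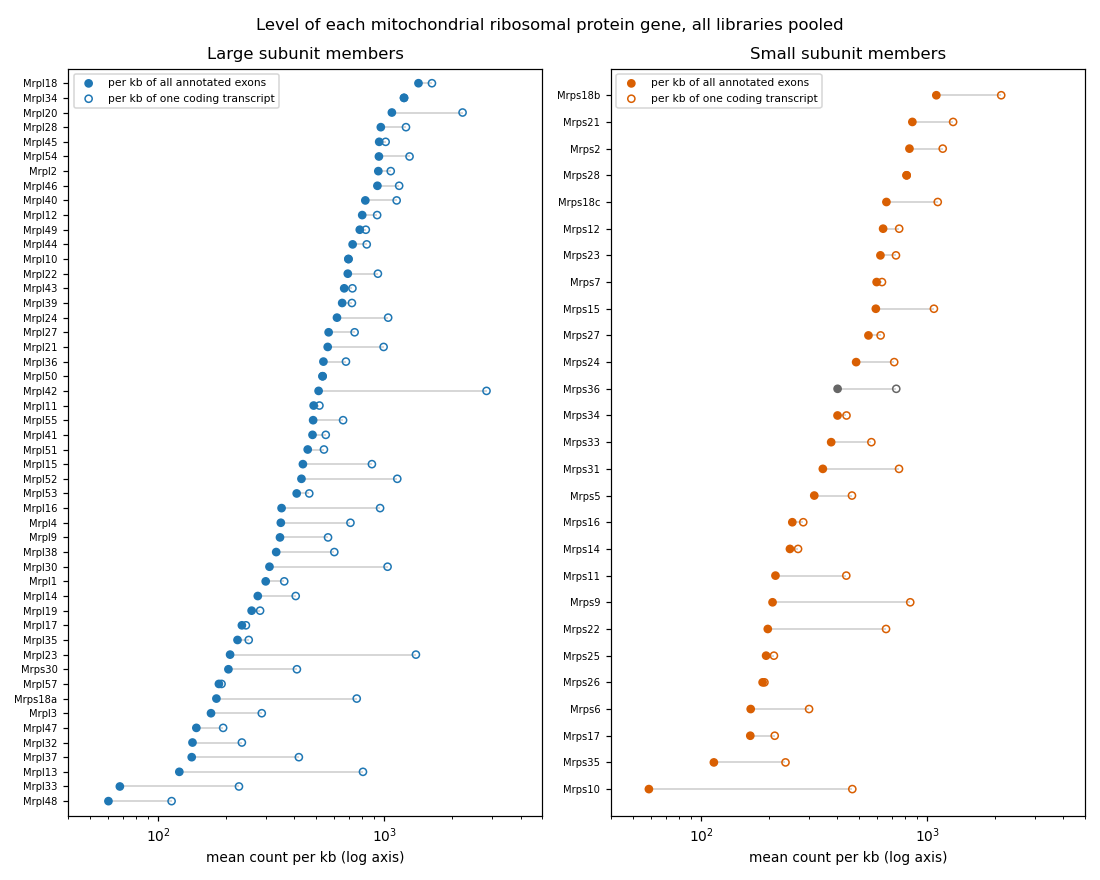
Mean count per kb (horizontal log axis) of each of the 77 members, all libraries pooled, with members of the large subunit on the left and those of the small subunit on the right, by place in the assembled ribosome (Mrps18a and Mrps30 are in the large one; Mrps36, in grey, is in neither). Filled points divide by all annotated exons and open points by the one transcript with the longest coding sequence; the long connecting lines, as for Mrpl42, Mrpl23 and Mrps10, mark genes whose level depends on the length used.

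The 6 members highest per kb came mostly from the large subunit. So did the 6 lowest, and so do the members as a whole (48 of 77 by symbol). Mrpl18 (chr17) stood first at 1415 per kb of exon. The bacterial relative of its product binds 5S ribosomal RNA, and the product itself sits in the central protuberance, the crown of the large subunit. Mrpl34 followed at 1221, Mrps18b at 1098 and Mrpl20 at 1079, then Mrpl28 at 964 and Mrpl45 at 948. Mrpl34, Mrpl20 and Mrpl28 have bacterial relatives, and Mrpl45 lies at the exit of the peptide tunnel, where the ribosome meets the inner membrane. The 6 lowest were Mrps10 at 58.8, Mrpl48 at 60.2, Mrpl33 at 67.6, Mrps35 at 114, Mrpl13 at 124 and Mrpl37 at 141. Of these 12 genes, Mrps18b, Mrps10 and Mrpl13 share over 10% of the 81-base stretches of their coding transcript with another gene, which makes their counts less certain.

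The low end depended on the length used as divisor. The count stayed that of the whole gene on both scales, so a value per kb of coding transcript is not the level of that transcript. Divided by the transcript with the longest coding sequence, Mrps10 stood at 467 per kb, Mrpl13 at 804 and Mrpl37 at 418, while Mrpl48 stayed lowest at 115. On that scale the lowest 6 were Mrpl48, Mrps26, Mrpl57, Mrpl47, Mrps25 and Mrps17, and 1 gene (Mrpl48) was shared with the list by all exons. The highest 6 were Mrpl42 at 2829, Mrpl20 at 2217, Mrps18b at 2127, Mrpl18 at 1623, Mrpl23 at 1378 and Mrps21 at 1303, of which 3 were shared. Over the 77 members the ranks on the 2 scales had a Spearman correlation of 0.76, a description across genes that share the same mean counts.

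Members were also read by where their products sit in the large subunit. The group taken as stalk proteins, which need not lie in the same structure, was Mrpl1, Mrpl10, Mrpl11 and Mrpl12. Their mean counts were 1282, 1184, 1571 and 1222, a 1.33-fold span. Per kb of exon they ranged from 299 (Mrpl1) to 798 (Mrpl12).

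Around the exit tunnel and the membrane-facing side, Mrpl22, Mrpl23, Mrpl24, Mrpl39, Mrpl44 and Mrpl45 had a median of 670 per kb, from 208 (Mrpl23) to 948 (Mrpl45). Mrpl23 was the low value by all exons and the high value of this group by coding transcript (1378), where the 6 genes spanned 1.92-fold. In the central protuberance, Mrpl18, Mrpl27, Mrpl38, Mrpl40, Mrpl46 and Mrpl48 had a median of 695 per kb but spanned 23.5-fold, with Mrpl18 at 1415 and Mrpl48 at 60.2. This region therefore held both the highest and nearly the lowest member. Mrps12, the protein at the decoding centre of the small subunit, stood at 639 per kb.

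The 3 paralogs of the bacterial S18 protein sit in different places. The product of Mrps18c takes the place of the bacterial protein, that of Mrps18b sits elsewhere in the small subunit, and that of Mrps18a sits in the large subunit. Their mean counts were 667 (Mrps18a), 2295 (Mrps18b) and 711 (Mrps18c). Per kb of exon they stood at 181, 1098 and 661, and per kb of coding transcript at 754, 2127 and 1114. Mrps18b was highest and Mrps18a lowest on both length scales.

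Mrps30, a protein named for the small subunit but placed in the large one, had a mean count of 1362 and 204 per kb of exon. Mrps36, which is named as a ribosomal protein but is a component of the oxoglutarate dehydrogenase complex of the citric acid cycle, had a mean count of 512 and 402 per kb, within the range of the ribosomal members.

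By symbol, the 48 Mrpl genes had a median of 482 per kb of exon and the 29 Mrps genes 346, a ratio of 1.40 that shrank to 1.14 per kb of coding transcript. The 46 members with bacterial relatives had a median of 394 per kb, and the 30 members specific to mitochondria 444, a ratio of 1.13. That order turned round per kb of coding transcript, where the specific members stood at 0.90 times the others. Quartiles within each class (227 and 655 for the bacterial type, 199 and 661 for the specific ones) lay over each other.

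The 5 subunits that carry other symbols had levels per kb within the range of the members. Ptcd3, a pentatricopeptide repeat protein of the small subunit, had a mean count of 4903, above every member. Dap3, the GTP-binding small subunit protein, had 1137, Aurkaip1 1502, Gadd45gip1 1864 and Chchd1 888. Per kb of exon these ran from 175 (Dap3) to 977 (Chchd1). Ict1, the older symbol in the table for Mrpl58, a large subunit protein with peptidyl-tRNA hydrolase activity, had 723 and 217 per kb; it was added after the values were seen.

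The factors that build and serve the ribosome had lower medians than its proteins. The 24 assembly factors (methyltransferases, GTPases, helicases and others that mature the mitochondrial ribosomal RNAs and subunits) had a median of 178 per kb, from 25.4 (Ybey, an endonuclease) to 537 (Ngrn, a factor for 16S ribosomal RNA), and 22 of them lay under the member median, which was 2.41 times theirs. The 14 translation factors had a median of 187, from 55.9 (Mtrf1l, a release factor) to 1435 (Tufm, the mitochondrial elongation factor Tu), and 11 lay under the member median. Tufm stood just above every member per kb of exon, where Mrpl18 was the highest member at 1415. Per kb of coding transcript Tufm stood at 1816, under Mrpl42, Mrpl20 and Mrps18b. The 4 genes of mitochondrial transcription ran from 112 (Polrmt, the RNA polymerase) to 475 (Tfam, the DNA-packaging transcription factor).

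**Figure D3:**
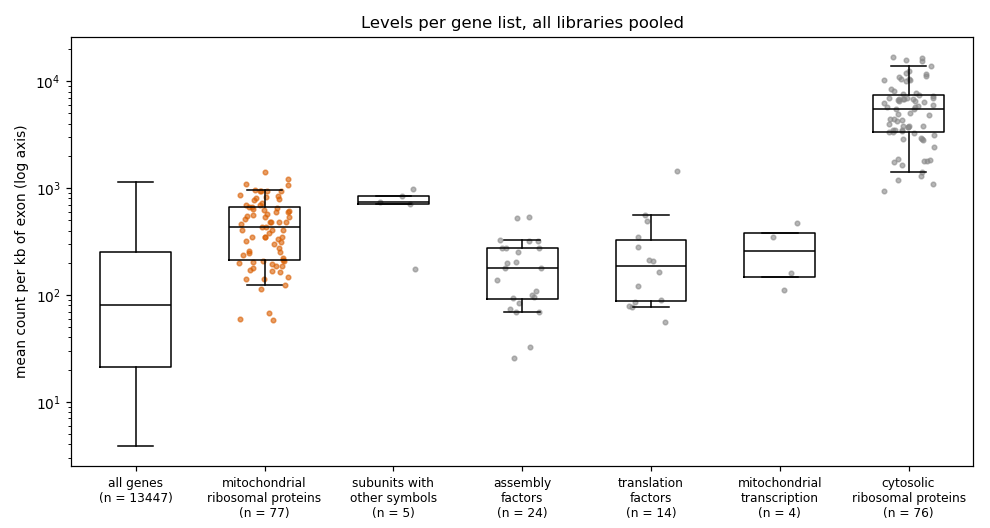
Mean count per kb of exon (vertical log axis), all libraries pooled, for all genes, the members and their companion lists. Boxes show quartiles and median, whiskers the 5th and 95th percentiles, and points single genes (not drawn for all genes); the members, with a median of 430, sit above assembly and translation factors and under the cytosolic ribosomal protein genes.

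The members had short, simple transcripts. In the transcript with the longest coding sequence they held a median of 5 exons in 1332 bases, against 9 exons in 3004 bases over all genes at the minimum and 5 exons in 847 bases over the cytosolic ribosomal protein genes. No member had a single exon, and 34 of 77 had 2 to 4. The medians of exon density in members and genes were 3.53 and 3.51 per kb.

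These features bear on m6A because methylation sites are known to be rare near exon junctions and to lie in long internal exons and in last exons. Of the 77 members, 75 (97.4%) had no internal exon over 400 bases, against 79.6% of genes. The exceptions were Mrps34, with an internal exon of 971 bases, and Mrpl44, with one of 469. Among transcripts with an internal exon, the longest had a median of 167 bases in members and 219 in genes. It was shorter still, at 152.5, in cytosolic ribosomal protein genes. The last exon had a median of 599 bases in members, 1264 in genes and 206 in cytosolic ribosomal protein genes.

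GGAC, the commonest core of the m6A consensus sequence, had a median density of 3.70 matches per kb of coding transcript in members, 4.25 in all genes and 3.46 in cytosolic ribosomal protein genes. Densities within the members ran from 1.42 (Mrpl50) to 12.8 (Mrpl38). A match is not a methylated site, and methylation was not measured in these libraries.

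**Figure D4:**
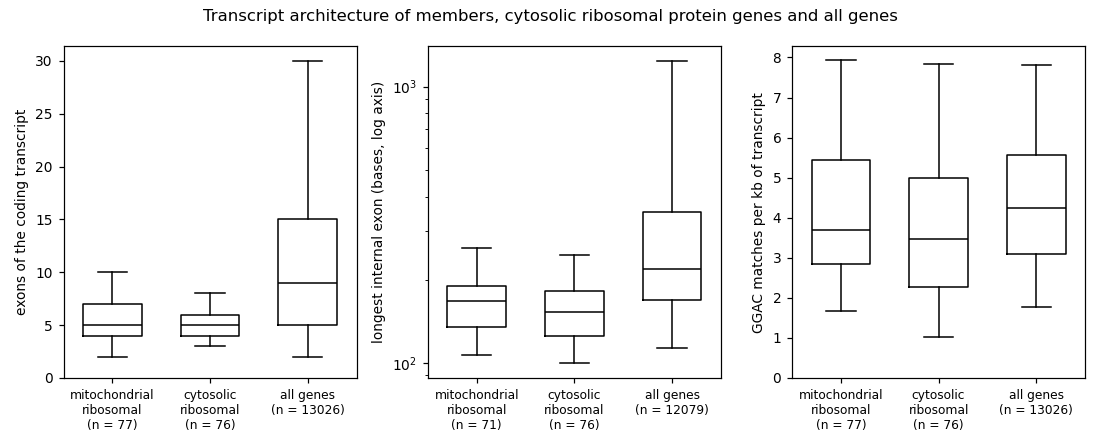
Exon number, longest internal exon (log axis, bases; genes with at least 3 exons) and GGAC matches per kb in the transcript with the longest coding sequence, for members, cytosolic ribosomal protein genes and all genes at the minimum. Boxes show quartiles and median and whiskers the 5th and 95th percentiles; members have a median of 5 exons against 9 over all genes.

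The members were spread over 17 chromosomes, with none on the X. A single pair of members lay with starts within 100 kb of each other: Mrpl46 and Mrps11 on chr7, on opposite strands with 412 bases between their starts. These genes overlap there and share 173 exon bases, so they are not among the 20 members counted next. A gene start on the opposite strand within 1000 bases upstream was found for 20 members (26.0%), against 15.4% of genes. Of these, 18 lay within 200 bases, at a median distance of 82 bases over the 20.

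The partners were of many kinds. Mrpl49 lay 59 bases from Fau, which encodes a fusion of a ubiquitin-like domain with a cytosolic ribosomal protein, and Mrpl32 lay 75 bases from Psma2, a proteasome subunit. Mrps12 lay 172 bases from Sars2, the mitochondrial seryl-tRNA synthetase, and Mrps27 lay 81 bases from Ptcd2, another mitochondrial RNA-binding protein. Mrpl40 lay 175 bases from the histone chaperone gene Hira, Mrps18c 29 bases from the helicase gene Helq, and Mrpl51 100 bases from the condensin gene Ncapd2.

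Some members share sequence or exon bases with other genes, so that their counts are less certain. It is unclear if counting took strand into account, and 27 members overlapped exons of a gene on the opposite strand, 8 of them over more than 20% of their exon length. Exons of a gene on the same strand overlapped 8 members. Among these was Mrps6, the member with the lowest mean count, over 30.3% of its exon length. The transcript with the longest coding sequence of each member was also cut into 81-base stretches (the read length), leaving its other exons unsearched. By this count 24 members shared at least 1 with a gene elsewhere in the genome and 8 shared over 10%, with Mrpl23 at 65.1% with its pseudogene Mrpl23-ps1. Stretches shared with overlapping genes on either strand made up the whole coding transcript of Mrpl53 (with Gm42688). They made up 77.4% of that of Mrps34, which overlaps exons of both Nme3 and Mapk8ip3. In Mrps25 they made up 72.7% (with Nr2c2) and in Mrps18b 49.9% (with Gm16279). Each share counts all such genes together, and a gene named beside it need not hold all of it. In all, 19 members shared over 10% of stretches in either way, and without them the median was 469 per kb in place of 430.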

How the data were processed

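RNA was sequenced in 8 libraries, 4 untreated and 4 given dTAG-13. Per the study's methods, the authors removed ribosomal RNA reads with bowtie2, aligned to N-masked mm10 with STAR, kept uniquely placed reads, removed duplicates with Picard and counted genes and transposable elements with TEtranscripts. The methods describe total RNA, whereas the extraction text of the labels describes chromatin RNA. The signal column deposited by the authors is a mean of size-factor-divided read counts over all libraries, with no value per library, so replicates could not be compared and no test was run. The 5 other columns hold the authors' own comparison (log2 fold change, its standard error, a statistic, p and adjusted p) and were not used.

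Of the gene names, 16647 matched GENCODE vM21 directly, 706 through an older symbol, 186 not at all and 58 several genes. Lengths, overlaps and motif matches were computed in Python 3.11.15 with pandas 2.3.3 and numpy 2.4.6, and drawn with matplotlib 3.10.9; the functions were tested on simulated sequences. Named genes are the 6 highest and 6 lowest members per kb, fixed structural groups, the Mrps18 paralogs, Mrps30, Mrps36 and the extremes of each companion list; other genes are named for an overlap, partner or motif after their values were seen. Members and lists were chosen with earlier results of these data known.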

Additional observations from a re-analysis of the deposited data

How the results depend on the processing

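No paired analysis was possible because the table holds no value per library, and for the same reason no library could be left out in turn. With no spread between replicates, a value was counted as moved whenever its printed digits changed; of 23 alternatives, 16 moved a value, 1 reversed one and 6 changed nothing (among these a minimum mean count of 100 and no minimum, which kept 77 members). The members' share of reads was 0.507% with transposable elements in the denominator. By the longest annotated transcript, the median per kb was 557, its percentile 84.2, the ratio of large to small subunit 1.22 and that of mitochondria-specific to bacterial-type members 1.01. By the transcript with the longest coding sequence, an alternative chosen after seeing the data, these were 708, 85.4, 1.14 and 0.90, the last a reversal that follows from the lengths alone since the mean counts are the same. Ranked among all genes with a length, the percentile was 88.4. Without the members that share stretches, also chosen after seeing the data, the median per kb was 469. With subunits set by place in the ribosome, the ratio of large to small was 1.30. Searching the given strand only, 18.9% of member windows held the ETS core, 6.76% the NRF1 core and 8.11% the YY1 core. The median density of GGAC was 3.46 per kb of the longest transcript, 4.71 in coding sequence only and, added after seeing the data, 3.70 in the coding transcript.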
